A study of Mus musculus with 13 samples.

Results

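The response to interleukin 4 (IL-4) of macrophages that lack histone deacetylase 3 (HDAC3) was described from 6 of the 13 arrays of the series, chosen by genotype and treatment in the sample labels: 3 arrays of HDAC3 knockout (KO) cells given IL-4 and 3 of KO cells given vehicle. All cells were macrophages derived by culture of bone marrow. The C57BL/6 mice were described as male and 12 to 16 weeks old, and the medium was conditioned by L929 cells, a fibroblast line that secretes macrophage growth factor. The Hdac3 gene carried loxP sites around exons 4 to 7, and KO mice also carried a Cre recombinase driven by the LysM (Lyz2) promoter, which is active in the myeloid lineage. Control mice carried the floxed alleles without Cre, so that loss of HDAC3 and presence of Cre cannot be told apart. Cells received 10 ng/mL IL-4 or 0.1% bovine serum albumin as vehicle for 24 h. The other 7 arrays held control cells, 4 with vehicle and 3 with IL-4, and are used here for comparison. The labels do not say that the arrays of a group came from separate mice or cultures. The p-values below therefore reflect sample-to-sample spread within groups that could be purely technical. That spread was pooled over all 4 groups, except in fits on the 6 KO arrays alone.

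IL-4 binds a receptor made of IL-4R alpha and a second chain and activates Janus kinases, which phosphorylate the transcription factor STAT6. STAT6 then drives the program called alternative activation, with arginase, chitinase-like lectins, resistin-like molecules and endocytic lectin receptors, and it also induces its own feedback inhibitors. HDAC3 removes acetyl groups from histones as the catalytic subunit of the NCoR and SMRT corepressor complexes, which hold many macrophage enhancers and promoters at low activity.

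Promoter sequences are shown first for the genes with the largest responses whose 250 bases before the transcription start held a searched motif, with coordinates and letters from RefSeq (GRCm38.p6). A promoter was listed for 24 of the 30 genes with the largest differences, 15 in each direction. Among those that rose, 3 of 11 held the letters TTCNNNNGAA, the spacing bound best by STAT6, which read the same on both strands; among those that fell, 2 of 13 held GAAANNGAAA on either strand, the core of an interferon-stimulated response element. Of the 13 that fell, 1 (Ifit2) held the STAT6-type letters, and none of the 11 that rose held the interferon-type letters. Capitals mark these matches, and the interferon-type matches lie on the reverse strand. The 3 windows of genes that rose are Retnla (chr16:48842359-48842608, plus strand, match 145 bases before the start), Hebp2 (chr10:18546077-18546326, minus strand, 84 bases before) and Tmem26 (chr10:68723496-68723745, plus strand, 227 and 41 bases before).

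Retnla: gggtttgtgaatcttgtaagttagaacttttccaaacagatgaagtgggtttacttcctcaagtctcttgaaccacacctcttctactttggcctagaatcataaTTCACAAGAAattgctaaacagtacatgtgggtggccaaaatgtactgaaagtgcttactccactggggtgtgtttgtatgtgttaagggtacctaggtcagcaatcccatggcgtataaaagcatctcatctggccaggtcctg
Hebp2: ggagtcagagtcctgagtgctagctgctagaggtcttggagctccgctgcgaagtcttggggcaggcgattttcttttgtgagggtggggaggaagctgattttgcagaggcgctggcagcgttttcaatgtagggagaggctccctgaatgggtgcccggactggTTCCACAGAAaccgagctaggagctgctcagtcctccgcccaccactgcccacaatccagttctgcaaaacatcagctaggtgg
Tmem26: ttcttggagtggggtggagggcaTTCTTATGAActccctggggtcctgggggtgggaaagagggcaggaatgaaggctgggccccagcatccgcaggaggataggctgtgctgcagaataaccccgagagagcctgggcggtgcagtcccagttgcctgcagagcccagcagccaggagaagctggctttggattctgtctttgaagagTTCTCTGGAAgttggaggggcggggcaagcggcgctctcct

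The windows of genes that fell are those of Ifit2 (chr19:34550838-34551087, plus strand, STAT6-type match 147 bases before the start) and of the neighbouring paralogs Ifit3 (chr19:34583279-34583528, plus strand, matches 156 and 122 bases before the start) and Ifit3b (chr19:34607707-34607956, plus strand, 188 and 154 bases before).

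Ifit2: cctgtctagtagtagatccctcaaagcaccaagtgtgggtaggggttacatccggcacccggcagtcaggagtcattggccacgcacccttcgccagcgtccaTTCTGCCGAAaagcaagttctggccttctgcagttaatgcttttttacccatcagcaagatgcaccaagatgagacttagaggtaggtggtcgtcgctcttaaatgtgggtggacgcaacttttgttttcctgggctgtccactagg
Ifit3: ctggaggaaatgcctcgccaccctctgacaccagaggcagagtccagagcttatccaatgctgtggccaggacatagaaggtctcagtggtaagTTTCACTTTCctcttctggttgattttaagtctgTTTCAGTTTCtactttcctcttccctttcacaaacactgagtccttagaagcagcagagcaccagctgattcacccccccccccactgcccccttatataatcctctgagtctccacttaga
Ifit3b: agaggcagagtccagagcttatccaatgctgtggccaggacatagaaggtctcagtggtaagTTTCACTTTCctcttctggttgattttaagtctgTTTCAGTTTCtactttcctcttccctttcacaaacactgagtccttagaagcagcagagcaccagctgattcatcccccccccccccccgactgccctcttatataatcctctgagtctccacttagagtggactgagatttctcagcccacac

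Across all genes with a promoter in the table, the STAT6-type letters stood before 8.89% of the genes that rose under IL-4 in KO cells (16 of 180), 6.55% of those that fell (11 of 168) and 5.97% of the 12503 genes tested. The interferon-type letters stood before 12.5% of the genes that fell (21 of 168), 4.44% of those that rose (8 of 180) and 3.44% of the genes tested. Of those 21 genes, 7 were antiviral genes of the list described below (Ifit1, Ifit3, Oas1a, Oas3, Rsad2, Stat2 and Trim30a). Among all 32851 windows of that length in the table, 5.85% held the first motif and 2.98% the second. A related spacing, TTCNNNGAA, which other STAT proteins bind, was found before Chil3 and Chil4, which rose, and before Fpr2 and, in its other window, Ifit2, which fell; these windows are not printed. It stood before 6.11% of the genes that rose, 6.55% of those that fell and 7.55% of those tested. These shares are counts of letters and were not tested.

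Levels below are log2 intensities minus the 75th percentile of their own array, so a level of 0 is the brightness of the probe at that percentile; a difference of 1 between groups is a doubling, and levels of different genes are not set against each other. Between 61.1% and 82.8% of spots were well above background on the 6 KO arrays, against 56.2% to 83.2% over the series, and no spot was saturated. Arrays of KO cells lay on slides 1, 2 and 3, each with 1 vehicle array (5, 6 and 7) and 1 IL-4 array (13, 14 and 15), and values are given in that order; each group kept its own position on the slide, so an effect of position cannot be told apart from one of the group. The median standard deviation of a gene was 0.244 among the KO arrays with IL-4, wider than in the KO vehicle (0.149), control IL-4 (0.185) and control vehicle (0.180) groups.

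Hdac3 itself measured -3.71, -3.16 and -3.51 in KO cells with vehicle and -3.22, -3.42 and -4.09 with IL-4. Control cells measured -1.75, -2.18, -2.05 and -2.21 with vehicle and -1.95, -2.34 and -1.85 with IL-4. All 6 KO arrays lay below all 7 control arrays. The KO groups overlapped, and their IL-4 difference was -0.11 ± 0.233 (SE, n = 3 arrays a group; limma adjusted p = 0.883); whether its probe reads one of the floxed exons is not known here, so these levels do not measure the deletion. All 12 macrophage markers were well above background on every KO array, with a summed linear level of 642 to 681 with vehicle and 623 to 686 with IL-4. Lyz2, the lysozyme gene whose promoter drives Cre, differed by -0.11 (limma adjusted p = 0.663).

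IL-4 changed 460 of 20546 genes in KO cells (2.24%), 231 upward (1.12%) and 229 downward (1.11%), by limma on all 13 arrays with Benjamini-Hochberg adjustment. At least 2-fold changes were called for 111 genes that rose and 68 that fell. Among the 15 largest rises were Retnla, Chil3, Chil4, Arg1 and the eosinophil-associated ribonucleases, and among the 15 largest falls were Cyp2s1, Slc13a3, Ifit2, Ifit3, Ifit3b, Fpr1 and Fpr2. The number of genes that rose was 153 without KO vehicle array 5, 145 without KO vehicle array 7 and 152 without KO IL-4 array 14. The number that fell was 137 without KO vehicle array 6, 120 without KO vehicle array 7 and 145 without KO IL-4 array 15. The median difference over all genes was -0.06, and 0.01, -0.11 and -0.04 on slides 1, 2 and 3; with arrays scaled to their medians it was 0.04, the genes that rose were 62.4% of all calls instead of 50.2%, and 109 genes fell. Fits on the 6 KO arrays alone called 82 genes up and 35 down, and 29 and 4 with slide as a block, which pairs the KO arrays by slide and kept 32 of the 460 calls. In RNA from whole cultures, a change in the share of cells that express a gene and a change in its RNA per cell cannot be told apart.

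**Figure D1:**
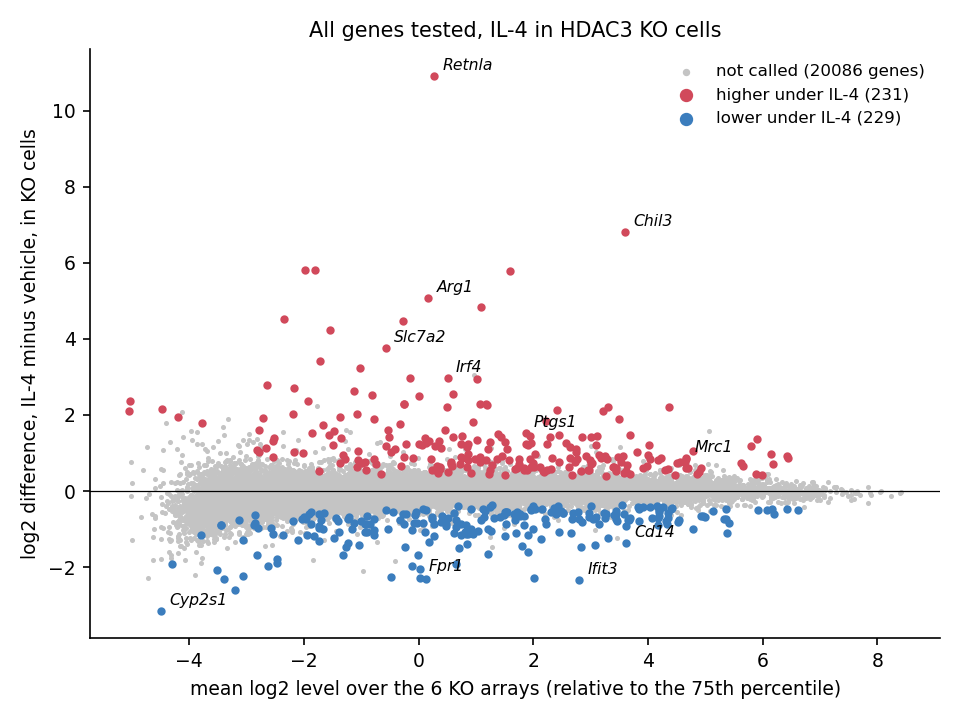
Difference between KO cells with IL-4 and with vehicle (log2, vertical axis) against the mean level over the 6 KO arrays (log2, horizontal axis) for the 20546 genes tested, with called genes coloured by direction. Of the called genes, 231 lie above 0 and 229 below, and the 5 largest differences are all upward.

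Genes for secreted proteins were among those with the largest rises. Retnla, which encodes the resistin-like molecule RELM alpha, measured -4.98, -5.23 and -5.33 with vehicle, where it was not well above background, and 5.59, 5.90 and 5.69 with IL-4. Its group means of -5.18 and 5.73 gave a difference of 10.91 ± 0.245 (limma adjusted p = 7.85e-10), and against the lowest signals well above background it was at least 970-fold higher. Chil3, the chitinase-like lectin Ym1, measured 0.71, 0.75 and -0.89 with vehicle and 7.00, 7.23 and 6.79 with IL-4, a difference of 6.81 ± 0.455 (limma adjusted p = 1.84e-05). KO vehicle array 7 was the lowest of the vehicle arrays for Chil3, and no IL-4 array came near any of them. Its paralog Chil4 measured -2.28, -2.29 and -2.94 with vehicle and 1.91, 2.58 and 1.38 with IL-4, a difference of 4.46 ± 0.351 (limma adjusted p = 5.6e-05); the sequences of both are close enough that signal may be shared between their probes. Ccl8, a chemokine for monocytes and T cells, measured -0.84, -0.86 and -0.31 with vehicle and 1.87, 2.06 and 1.68 with IL-4, a difference of 2.54 ± 0.195 (limma adjusted p = 4.84e-05).

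Of 16 measured secreted products of alternative activation, 5 rose and 1 fell, with a median difference of 0.27. The fifth that rose was the growth factor Igf1 (0.75, limma adjusted p = 0.00346), and the one that fell was Vegfa, the vascular endothelial growth factor (-0.66, limma adjusted p = 0.00642). The chemokines Ccl17 (difference 1.33) and Ccl24 (1.13) had limma adjusted p-values of 0.105 and 0.0628 and were not called. Fn1, which encodes fibronectin, differed by 0.29 and Tgfb1 by 0.25, neither called.

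Arginase 1 and an arginine transporter were called among the genes of arginine and polyamine metabolism. Arg1, which cleaves arginine to ornithine and urea, measured -2.24, -2.49 and -2.38 with vehicle and 2.65, 2.92 and 2.54 with IL-4, a difference of 5.08 ± 0.173 (33.8-fold; limma adjusted p = 4.33e-08). Slc7a2, a plasma membrane transporter of arginine, measured -2.40, -2.47 and -2.48 with vehicle and 1.21, 1.33 and 1.35 with IL-4, a difference of 3.75 ± 0.202 (limma adjusted p = 2.86e-06). For both genes the arrays of each group lay closely together and the groups were far apart. Those were the only 2 of 16 measured members called, and they were called in all 27 alternative settings. The other 14 were not called; ornithine decarboxylase Odc1 differed by -0.09, spermidine synthase Srm by 0.21 and the mitochondrial arginase Arg2 by 1.35 (limma adjusted p = 0.143). The median over the 16 was 0.10.

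Eosinophil-associated ribonucleases, secreted enzymes that macrophages also make after IL-4, rose in 5 of 6 measured members, with a median difference of 5.31. Rnase2a measured -1.03, -0.98 and -1.91 with vehicle and 4.27, 4.73 and 4.45 with IL-4, a difference of 5.79 ± 0.306 (limma adjusted p = 2.86e-06). Ear3 measured -4.53, -4.28 and -5.86 with vehicle, not well above background, and 0.64, 1.66 and 0.43 with IL-4; with group means of -4.89 and 0.91 it was at least 33.0-fold higher (limma adjusted p = 0.000191). The differences of Ear10 (5.80), Ear1 (4.82) and Ear6 (4.22) were called as well (Ear10 with 1 of 3 vehicle arrays well above background), while Rnase2b differed by 0.94 with overlapping groups (limma adjusted p = 0.417). Members of this family are near-identical in sequence and probes may read several of them, so the 5 values may not be 5 separate measurements. Where probes had to be well above background on all arrays, 1 member (Rnase2a) was called, and Ear1, Ear3, Ear6 and Ear10 were not tested. None of the 5 measured eosinophil markers was called by limma (0 at an unadjusted p under 0.05), and their summed linear level was 19.9 to 23.0 with vehicle and 21.9 to 24.5 with IL-4.

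**Figure D2:**
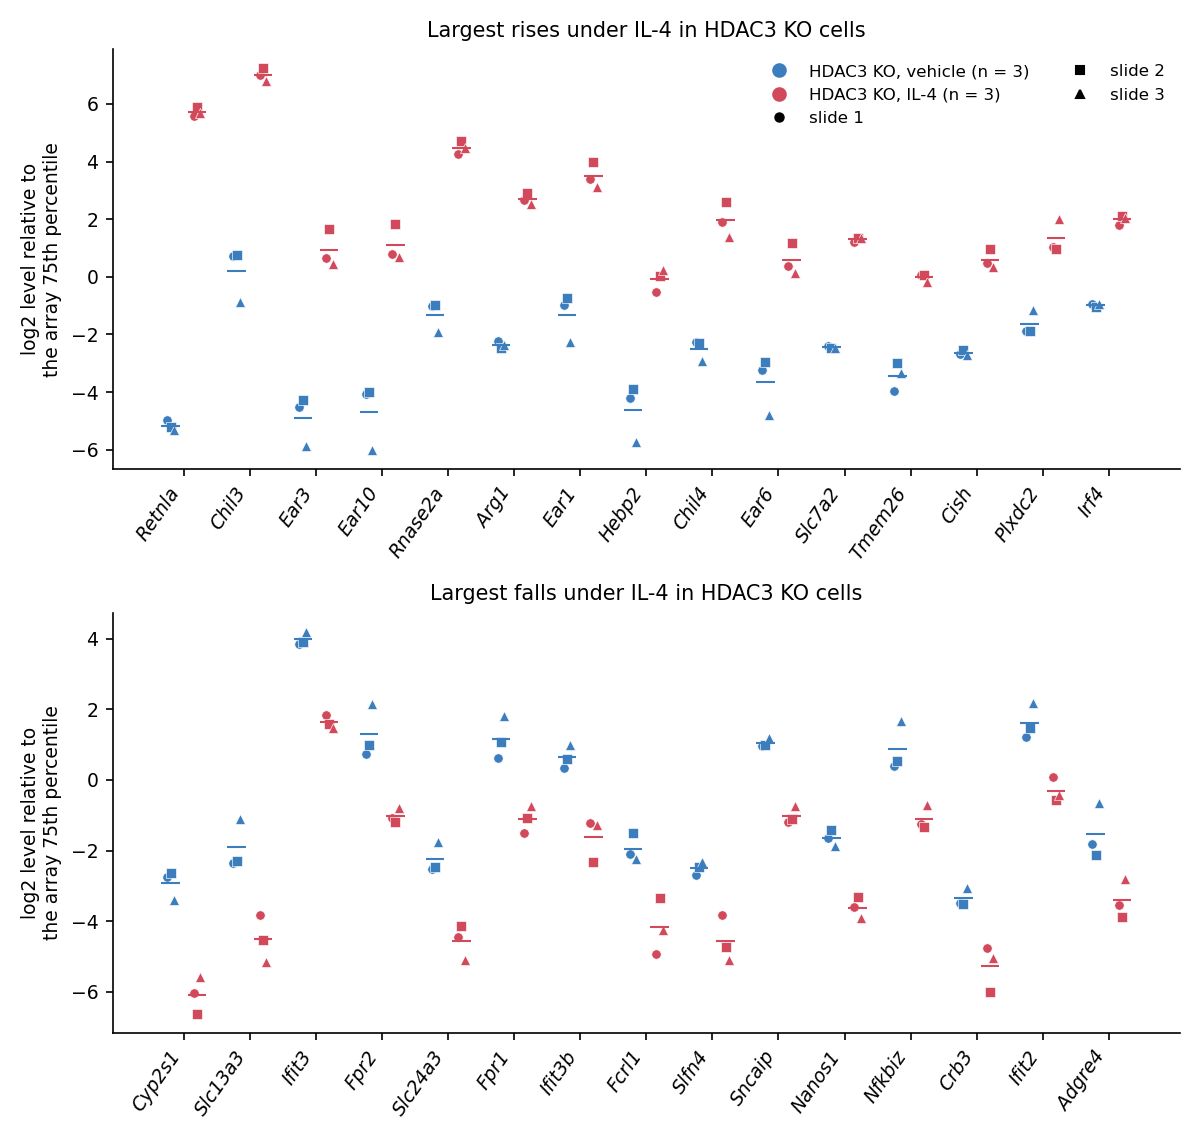
Level (log2 relative to the array's 75th percentile, vertical axis) on each of the 3 KO vehicle and 3 KO IL-4 arrays for the 15 genes with the largest rise (upper panel) and the 15 with the largest fall (lower panel) under IL-4. Short lines are group means. Each point is 1 array, and for every gene the arrays of the groups do not overlap, which was part of how these genes were chosen; over all genes, the arrays with IL-4 lay above all arrays with vehicle in 8.16% and below them in 10.5%.

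Hebp2, Tmem26 and Plxdc2 were also among the genes with the largest rises. Hebp2, a heme-binding protein, measured -4.22, -3.90 and -5.73 with vehicle and -0.53, 0.04 and 0.23 with IL-4, a difference of 4.53 ± 0.434 (limma adjusted p = 0.00022), with 1 of the 3 vehicle arrays well above background. Tmem26, which encodes a membrane protein, measured -3.96, -2.99 and -3.33 with vehicle and 0.05, 0.05 and -0.17 with IL-4, a difference of 3.40 ± 0.231 (limma adjusted p = 1.84e-05). Plxdc2, a plexin-domain membrane protein, rose by 2.97 (limma adjusted p = 0.00015). In the first of these genes every IL-4 array stood far above every vehicle array, and likewise in the second. Among the 15 genes with the largest rise, KO vehicle array 7 was the lowest vehicle array in 11 and KO IL-4 array 14 the highest IL-4 array in 11; over all 231 these numbers were 140 and 153. The part of these arrays in the differences was not tested beyond leaving each out.

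Of 8 measured SOCS and CISH feedback inhibitors of cytokine signalling, 2 rose and none fell. Cish, an inhibitor that binds phosphorylated cytokine receptors, measured -2.68, -2.55 and -2.70 with vehicle and 0.47, 0.96 and 0.33 with IL-4, a difference of 3.23 ± 0.37 (limma adjusted p = 0.000727). Socs1, which blocks Janus kinases, measured -3.53, -3.12 and -2.67 with vehicle and -0.75, -0.82 and -0.65 with IL-4, a difference of 2.37 ± 0.196 (limma adjusted p = 8.45e-05). The vehicle and IL-4 arrays did not overlap for either gene. With slide as a block in the 6 KO arrays the limma adjusted p of Socs1 was 0.055 and its call was lost, and neither gene was tested where probes had to be well above background on all arrays, control arrays included. Socs3 differed by -0.01 in KO cells (limma adjusted p = 0.995) and by -1.52 in control cells. Of 13 measured genes of the receptor, JAK and STAT6 pathway, Il13ra1, the chain that pairs with IL-4R alpha on non-lymphoid cells, fell from 0.54, 0.64 and 0.75 to -0.18, -0.73 and -0.40 (difference -1.08 ± 0.129, limma adjusted p = 0.000987). Jak2 rose by 0.56 (limma adjusted p = 0.0158), but its other probe moved the opposite way and its call was lost without any 1 of KO vehicle arrays 5 and 7 and KO IL-4 array 14, where its limma adjusted p was 0.0549, 0.0823 and 0.0555. Il4ra differed by 0.11 (limma adjusted p = 0.846) and Stat6 by 0.11 (limma adjusted p = 0.766).

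Of 14 measured transcription and chromatin regulators of alternative activation, 7 rose and none fell, with a median difference of 0.65. Irf4, an interferon regulatory factor required for many IL-4 responses of macrophages, measured -0.95, -1.04 and -0.93 with vehicle and 1.81, 2.12 and 2.03 with IL-4, a difference of 2.96 ± 0.131 (limma adjusted p = 5.23e-07). Batf3, a partner of IRF4 on DNA, measured -1.04, -1.41 and -1.72 with vehicle and 0.54, 1.26 and 0.85 with IL-4, a difference of 2.28 ± 0.261 (limma adjusted p = 0.000727). Bhlhe40, a repressor with a helix-loop-helix domain, rose by 2.51 ± 0.332 (limma adjusted p = 0.00186). Each of these 3 had vehicle and IL-4 arrays well apart. Pparg, the lipid-sensing nuclear receptor, measured 1.93, 1.96 and 1.94 with vehicle and 2.90, 3.58 and 3.10 with IL-4, a difference of 1.25 ± 0.15 (limma adjusted p = 0.000987). Klf4 rose by 0.85 (limma adjusted p = 0.00218) and Tfec, a MiT-family factor of macrophages, by 0.71 (limma adjusted p = 0.0199).

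Egr2, a zinc-finger factor induced by STAT6, also rose, with less margin. It measured 6.14, 6.16 and 5.60 with vehicle and 6.91, 6.87 and 6.86 with IL-4, a difference of 0.91 ± 0.174 (limma adjusted p = 0.0173). KO vehicle array 7 lay below the other vehicle arrays, and the call was lost without it (limma adjusted p = 0.0629), without KO IL-4 array 14 (0.0587) or without KO IL-4 array 15 (0.0565). The list held 3 calls in the fit on the 6 KO arrays and 2 with slide as a block. Rxra, the partner of PPAR gamma, differed by 0.06, Cebpb by 0.12 and Myc by 0.23, none of them called.

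Lectin and other surface molecules of alternative activation rose in 7 of 16 measured members and fell in none, with a median difference of 0.54. Clec10a, a galactose-binding lectin, measured 1.13, 1.49 and 1.43 with vehicle and 3.30, 3.72 and 3.41 with IL-4, a difference of 2.13 ± 0.188 (limma adjusted p = 0.000125). Its relative Mgl2 measured -1.84, -2.59 and -1.84 with vehicle and -0.13, -0.13 and 0.07 with IL-4, a difference of 2.03 ± 0.249 (limma adjusted p = 0.00113). Mrc1, the mannose receptor, measured 4.29, 4.23 and 4.17 with vehicle and 5.07, 5.08 and 5.13 with IL-4, a difference of 0.86 ± 0.0979 (limma adjusted p = 0.000722). The change of the mannose receptor was small, and so was the spread of the arrays within each of its groups. Clec7a, the beta-glucan receptor dectin-1, measured 5.74, 5.79 and 5.43 with vehicle and 6.58, 6.73 and 6.58 with IL-4, a difference of 0.98 ± 0.113 (limma adjusted p = 0.000779).

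Itgax, the integrin CD11c of dendritic cells and some macrophages, measured 3.53, 3.70 and 2.57 with vehicle and 5.45, 5.67 and 5.30 with IL-4, a difference of 2.21 ± 0.272 (limma adjusted p = 0.00116). It raised the summed level of the dendritic cell markers from 7.70 to 14.6 with vehicle to 41.2 to 52.1 with IL-4; of the other markers on that list, Flt3 differed by -0.25, Zbtb46 by -0.21 and Xcr1 by -0.34, none called, and Clec9a and Ccr7 were not well above background on any KO array. Flt1, a VEGF receptor, rose by 2.30 (limma adjusted p = 0.000648), with 2 of its 5 probes in the opposite direction, and Cd274, the ligand PD-L1, by 0.53 (limma adjusted p = 0.0422). The scavenger receptors Msr1 (-0.29), Cd36 (0.19) and Cd163 (0.11) were not called. The surface list held 4 calls in the fit on the 6 KO arrays and 1 with slide as a block.

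Enzymes of prostaglandin and leukotriene synthesis moved in both directions, with 2 of 11 measured members up and 1 down. Ptgs1, cyclooxygenase 1, had a mean of 1.11 ± 0.0904 (SD, n = 3 arrays) with vehicle and measured 2.29, 2.85 and 2.73 with IL-4, a difference of 1.52 ± 0.166 (limma adjusted p = 0.000553). Hpgds, the hematopoietic prostaglandin D synthase, measured -0.07, -0.02 and -0.02 with vehicle and -0.91, -1.12 and -1.08 with IL-4, which was 2-fold lower (SE of the log2 difference 0.131; limma adjusted p = 0.00177). In both genes the groups were clear of each other, Ptgs1 upward and Hpgds downward. Ltc4s, the leukotriene C4 synthase, was 2-fold higher (limma adjusted p = 0.0385), a call lost in 11 of the 13 fits that left out a single array, among them all those of KO cells except KO IL-4 array 13 (limma adjusted p between 0.0784 and 0.138). Ptgs2, cyclooxygenase 2, differed by 0.36 and Alox5 by 0.07, neither called.

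Of 10 measured genes for antigen presentation on MHC class II, 2 rose and none fell, with a median difference of 0.41. Cd74, the invariant chain, measured 2.43, 2.70 and 2.52 with vehicle and 4.10, 4.75 and 4.48 with IL-4, a difference of 1.89 ± 0.29 (limma adjusted p = 0.00455). H2-Ab1, a class II beta chain, measured 1.12, 1.25 and 1.27 with vehicle and 2.50, 3.08 and 2.42 with IL-4, a difference of 1.46 ± 0.296 (limma adjusted p = 0.0251). All IL-4 arrays stood above all vehicle arrays for both, but 1 of the 4 probes of H2-Ab1 moved the opposite way, and its call was lost without KO vehicle array 5, 6 or 7 or KO IL-4 array 14 (limma adjusted p = 0.0948, 0.0809, 0.0876 and 0.107). H2-Aa differed by 0.81, H2-Eb1 by 0.92 and the transactivator Ciita by 0.35, none called. In control cells the differences were 1.01 for Cd74 (limma adjusted p = 0.0519) and 0.70 for H2-Ab1 (limma adjusted p = 0.247), and the differences between genotypes were not called.

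Antiviral interferon-stimulated genes gave the most falls of the 25 lists: 17 of 34 measured members fell and none rose, and every member had a lower mean with IL-4. Their median difference was -0.61, and it was -0.32, -0.60 and -0.87 on slides 1, 2 and 3. In 29 of the 34 the arrays with IL-4 lay below all arrays with vehicle, against 10.5% of all genes. Ifit3, an RNA-sensing effector protein, measured 3.84, 3.90 and 4.19 with vehicle and 1.85, 1.57 and 1.47 with IL-4, a difference of -2.35 ± 0.159 (limma adjusted p = 1.84e-05). Ifit2 measured 1.20, 1.46 and 2.17 with vehicle and 0.09, -0.58 and -0.43 with IL-4, a difference of -1.91 ± 0.284 (limma adjusted p = 0.00375). Ifit1 measured 5.26, 5.32 and 5.30 with vehicle and 4.52, 4.18 and 4.18 with IL-4, a difference of -1.01 (limma adjusted p = 0.000535). All 3 were lower with IL-4 on every slide. Rsad2, the antiviral enzyme viperin, measured 5.89, 5.88 and 6.05 with vehicle and 5.15, 4.70 and 4.63 with IL-4, a difference of -1.11 ± 0.161 (limma adjusted p = 0.00326).

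Further members that fell were the nucleotide kinase Cmpk2 (-1.48), the oligoadenylate synthase-like Oasl1 (-1.27), the transcription factor Stat2 (-0.78), the RNA sensor Ddx58 (-0.66) and the ubiquitin ligase Trim30a (-0.58). Isg15 (-0.53), Irf7 (-0.76) and Mx1 (-0.27) were not called, with limma adjusted p-values of 0.112 or more. Ifit3b, whose probe may share signal with Ifit3 and whose promoter holds the same pair of motifs, fell by 2.25 on the log2 scale (limma adjusted p = 0.00248). The count of 17 depended on single arrays: it was 10 without KO vehicle array 6, 8 without KO vehicle array 7, 9 without KO IL-4 array 15 and 7 without the 2 arrays that had the fewest spots well above background. It was 8 with arrays scaled to their medians, 10 with the mean of a gene's probes, 2 in the fit on the 6 KO arrays and 0 with slide as a block, while the median of the list stayed between -0.69 and -0.49 in all 27 alternatives. In control cells 12 of the 34 fell, with a median of -0.42.

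Receptors for formylated bacterial peptides fell together. Fpr2 measured 0.74, 0.99 and 2.15 with vehicle and -1.07, -1.19 and -0.81 with IL-4, a difference of -2.32 ± 0.317 (limma adjusted p = 0.00222). Fpr1 measured 0.61, 1.07 and 1.82 with vehicle and -1.49, -1.08 and -0.75 with IL-4, a difference of -2.27 ± 0.35 (limma adjusted p = 0.00464). KO vehicle array 7 was the highest vehicle array for both, as it was in 12 of the 15 genes with the largest fall. Fpr1 and Fpr2 were the 2 called of 5 measured formyl and complement peptide receptors. The count was 0 in the fit on the 6 KO arrays and 1 with slide as a block in them. Cxcr3, a receptor for interferon-induced chemokines, measured -1.01, -1.58 and -1.11 with vehicle and -2.49, -2.22 and -2.54 with IL-4, a difference of -1.18 ± 0.173 (limma adjusted p = 0.00334), the only chemokine receptor called of 8.

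Microbial sensing and paired receptors also fell in part. Cd14, the lipopolysaccharide coreceptor, measured 4.19, 4.18 and 4.53 with vehicle and 2.71, 3.18 and 2.91 with IL-4, a difference of -1.36 ± 0.146 (limma adjusted p = 0.000492). Tlr2, which senses bacterial lipopeptides, fell by 1.08 on the log2 scale (limma adjusted p = 0.011), while Tlr4 differed by 0.05 (limma adjusted p = 0.86); Cd14 and Tlr2 were the 2 called of 17. Of 22 paired and CD300 receptors, 6 fell and 1 rose, with a median difference of -0.25, and the rise was lost in 12 of the 13 fits without a single array. Pilrb1, an activating paired immunoglobulin-like receptor, measured 3.67, 3.57 and 4.14 with vehicle and 2.02, 2.73 and 2.37 with IL-4, a difference of -1.42 ± 0.191 (limma adjusted p = 0.002). Pilrb2 measured -0.83, -0.55 and -0.04 with vehicle and -2.49, -1.94 and -2.01 with IL-4, a difference of -1.68 ± 0.267 (limma adjusted p = 0.00587), and the inhibitory Pilra differed by -1.43 (limma adjusted p = 0.00132). The genes of this family are close in sequence and their probes may share signal. With slide as a block in the 6 KO arrays, none of the 6 falls was called, and 2 were without the block.

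Classical inflammatory mediators fell in 4 of 17 measured members and rose in 1, with a median difference of -0.46. Ccl3, an inflammatory chemokine, measured 4.86, 4.91 and 5.01 with vehicle and 4.35, 4.11 and 4.03 with IL-4, a difference of -0.76 ± 0.134 (limma adjusted p = 0.0107). Ccl4 measured 6.20, 6.23 and 6.55 with vehicle and 5.94, 5.79 and 5.73 with IL-4, a difference of -0.51 ± 0.109 (limma adjusted p = 0.0339), and the neutrophil chemokine Cxcl2 differed by -0.84 (limma adjusted p = 0.0206). Groups of these genes did not overlap, but the call of Ccl4 was lost in 11 of the 13 fits without a single array (without KO vehicle array 7, its limma adjusted p was 0.128), that of Cxcl2 in 5 and that of Ccl3 in 2. The count of 4 became 2 without KO vehicle array 5 or 6 and 1 without KO vehicle array 7 or KO IL-4 array 15, and it was 1 with arrays scaled to their medians. In the fits on the 6 KO arrays, with and without slide as a block, it was 0, and the rise was not called either. Tnf differed by -0.56 (limma adjusted p = 0.0626) and Il1b by -1.03 (limma adjusted p = 0.167). Nfkbiz, a nuclear regulator of NF-kappa B target genes, measured 0.40, 0.53 and 1.67 with vehicle and -1.25, -1.33 and -0.71 with IL-4, a difference of -1.96 ± 0.335 (limma adjusted p = 0.00891).

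Other genes among the largest falls belonged to no list. Sncaip, which encodes the alpha-synuclein partner synphilin-1, had a mean of 1.05 ± 0.118 (SD, n = 3 arrays) with vehicle and measured -1.20, -1.10 and -0.73 with IL-4, a difference of -2.06 ± 0.159 (limma adjusted p = 5.01e-05). Slc13a3, a dicarboxylate transporter, differed by -2.59 (limma adjusted p = 0.00231) and Fcrl1, an Fc receptor-like gene of B cells, by -2.23, each with 1 of the 3 IL-4 arrays well above background, and Nanos1, an RNA-binding regulator, differed by -1.97 (limma adjusted p = 0.000987). Cyp2s1, a cytochrome P450, was not well above background on any KO array with IL-4 and was at least 2.31-fold lower there, with group means of -2.92 and -6.08 (limma adjusted p = 0.0186); its call was lost without KO vehicle array 5 or 6 or KO IL-4 array 14 (limma adjusted p = 0.0751, 0.0797 and 0.0866). Slc24a3, a sodium and calcium exchanger, was at least 3.26-fold lower, with means of -2.24 and -4.56 (limma adjusted p = 0.00133). Adgre4, an adhesion receptor of macrophages, differed by -1.88 (limma adjusted p = 0.0384), and without KO vehicle array 7 by -1.44 (limma adjusted p = 0.136); its call was lost in 8 of the 13 fits without a single array.

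**Figure D3:**
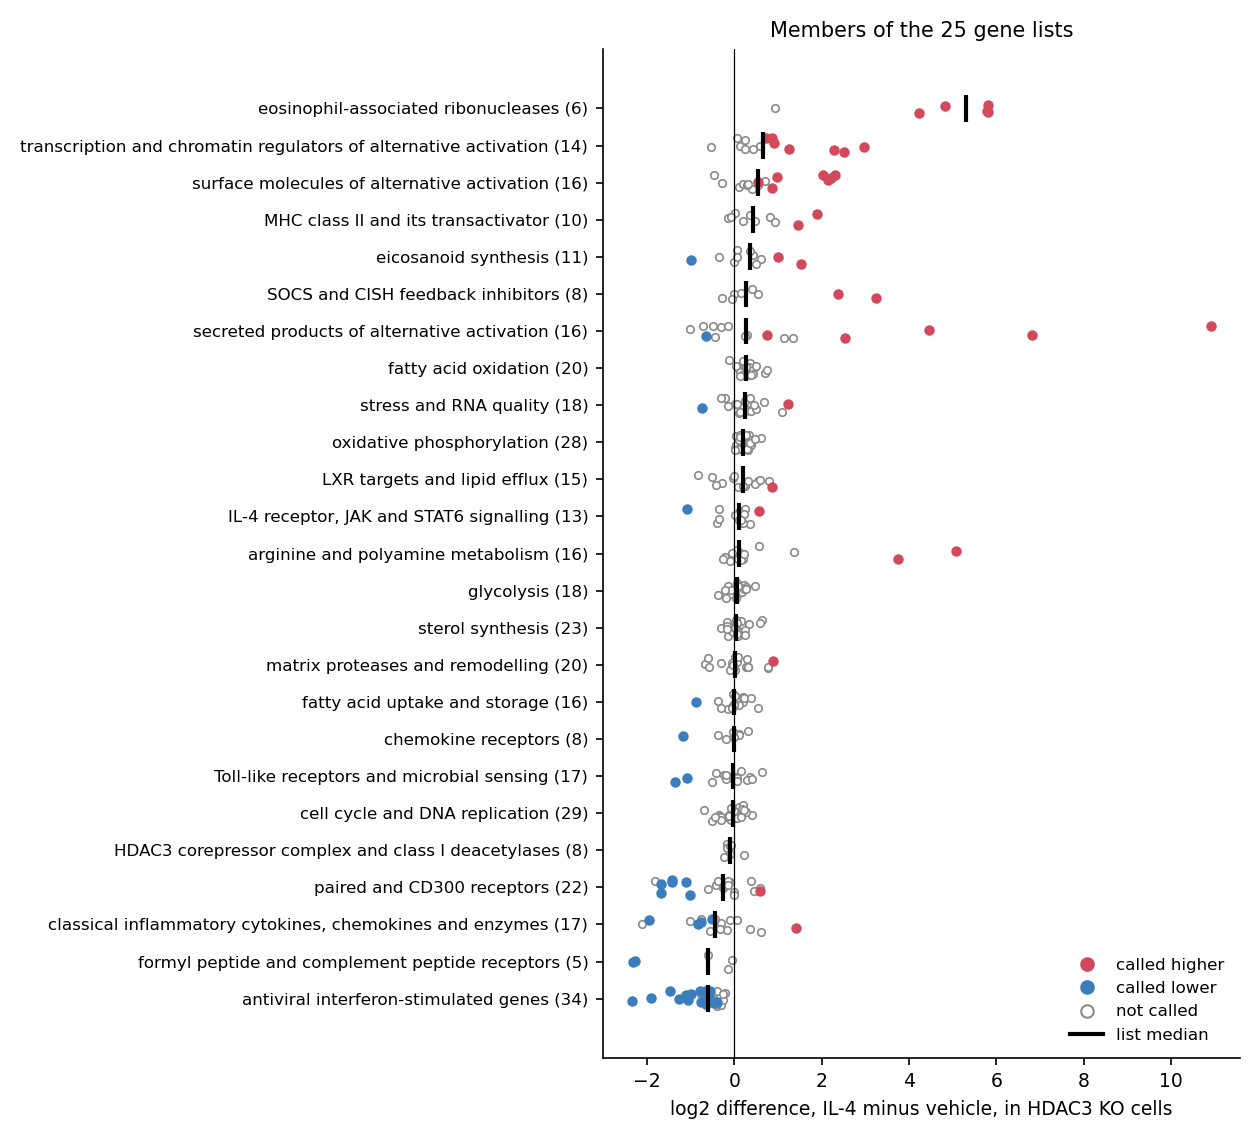
Differences between KO cells with IL-4 and with vehicle (log2, horizontal axis) for the measured members of each gene list, with called members coloured by direction and the list median marked. The ribonucleases (median 5.31) stand at the high end, and the antiviral genes (median -0.61) and the formyl and complement peptide receptors (median -0.60) at the low end.

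Metabolic lists held few calls by limma. Over all genes tested 12.4% had an unadjusted p under 0.05, 5.57% higher and 6.87% lower with IL-4. None of 20 fatty acid oxidation genes was called, but 11 had an unadjusted p under 0.05, all higher with IL-4, and the median difference was 0.26. None of 28 oxidative phosphorylation genes was called, with 9 at an unadjusted p under 0.05, all higher (median 0.21). Among 18 glycolysis genes (median 0.06) none was called and 1 had an unadjusted p under 0.05 in each direction, and among 23 sterol synthesis genes (median 0.04) none was called and 4 had one, all higher. The median of glycolysis changed sign in 1 of 27 alternatives (without KO vehicle array 7) and that of sterol synthesis in 3 (without KO vehicle array 7, without KO IL-4 array 14 and with array weights). Of 16 genes of fatty acid uptake and storage, 1 fell. None of 29 cell cycle and DNA replication genes was called (median -0.04, with the other sign in 3 of 27 alternatives; 1 higher and 2 lower at an unadjusted p under 0.05), nor any of 8 genes of the HDAC3 corepressor complexes and class I deacetylases (median -0.11; 0 at that p). Arl4c, a small GTPase induced by LXR, was the 1 of 15 LXR targets called (0.87, upward), and the proteoglycan gene Sdc4 the 1 of 20 matrix protease and remodelling genes (0.87, upward). Among 18 stress and RNA quality genes 1 rose and 1 fell, with a median of 0.25. At an unadjusted p under 0.05, 8 of these 18 genes were higher and 2 lower. The fall was lost in 8 of the 13 fits without a single array, and the count of rises lay between 0 and 7 in 27 alternatives.

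Markers of other cell types were summed for each KO array, and the dendritic and osteoclast lists had sums that did not overlap between treatments. Summed levels with vehicle and with IL-4 were 0.787 to 1.08 and 0.960 to 1.20 for T cells, 18.2 to 22.8 and 22.2 to 26.2 for B cells, 2.88 to 6.22 and 3.48 to 10.3 for neutrophils, and 5.26 to 5.80 and 4.48 to 6.47 for fibroblasts. They were 1.04 to 1.28 and 0.798 to 1.31 for NK cells, 0.686 to 0.768 and 0.519 to 0.754 for mast cells and basophils, and 29.3 to 41.1 and 23.9 to 29.4 for erythroid cells and megakaryocytes. The T cell marker Cd3d, the neutrophil elastase gene Elane and the platelet gene Gp9 were not well above background on any KO array. Other members of these lists were: 3 of 7 T cell, 4 of 6 B cell and 5 of 7 neutrophil markers on every KO vehicle array. So were 4 of 6 NK cell, 3 of 7 mast cell and basophil, 4 of 6 erythroid and megakaryocyte and 7 of 8 fibroblast markers. Osteoclast markers summed to 26.8 to 38.8 with vehicle and 47.1 to 54.2 with IL-4. On that list Ocstamp, a membrane protein of fusing osteoclast precursors, rose by 2.80 (limma adjusted p = 0.0024), and the other 6 were not called, among them Acp5 (0.72) and Ctsk (0.29). The part of any other cell type in the results was not tested.

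Set beside control cells, KO cells gave fewer calls, nearly all with the same direction. IL-4 called 1187 genes in control cells (5.78%), 548 up (2.67%) and 639 down (3.11%). Of the 231 genes that rose in KO cells, 202 rose in control cells, 87.4% of the KO calls and 36.9% of the control calls. Of the 229 that fell, 186 fell in control cells, 81.2% of the KO calls and 29.1% of the control calls. The sign was the same in control cells for 230 of the 231 and 227 of the 229, and no gene was called in opposite directions. The contrasts share no array, and the vehicle group held 4 arrays in control cells and 3 in KO cells. The median standard deviation with IL-4 was 0.185 in control and 0.244 in KO cells. The fit pooled the spread of a gene over all groups, so both contrasts used the same spread. With fewer vehicle arrays, the standard error was slightly larger in KO cells (for Arg1, 0.173 against 0.162 in control cells). What set the numbers of calls apart was not tested, and they are not read as the size of the responses. The median difference of the 231 genes was 0.94 in KO cells and 1.14 in control cells, and that of the 229 genes was -0.77 and -0.75, values that describe genes chosen in KO cells. In 138 of the 231 and 117 of the 229 the control difference was the larger one.

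**Figure D4:**
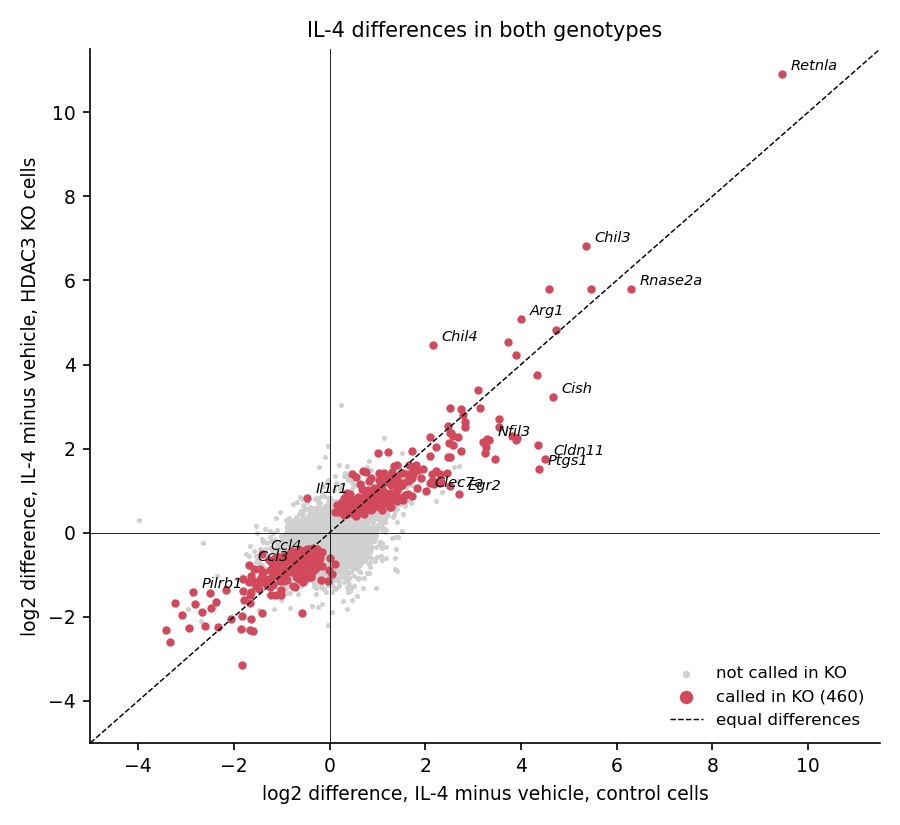
IL-4 difference in KO cells (log2, vertical axis) against the IL-4 difference in control cells (log2, horizontal axis) for the 20546 genes tested, with the 460 genes called in KO cells coloured and a dashed line where both differences are equal. The called genes lie on the same side of 0 on both axes in 230 of the 231 that rose and 227 of the 229 that fell, and Ptgs1 lies below the line at 4.39 in control and 1.52 in KO cells.

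Among 8 genes picked from those that rose in KO cells, some had the larger difference in KO cells and others in control cells. Chil3 differed by 6.81 in KO and 5.35 in control cells, Arg1 by 5.08 and 4.00, Irf4 by 2.96 and 2.52, Chil4 by 4.46 and 2.17. Rnase2a differed by 5.79 and 6.31, Slc7a2 by 3.75 and 4.33, Itgax by 2.21 and 3.90, and Egr2 by 0.91 and 2.72. None of these 8 differences between genotypes was called. For genes near background with vehicle the sizes are not set side by side: Retnla was well above background on 0 of 3 KO and 1 of 4 control arrays with vehicle, and Cish on 3 of 3 KO and 0 of 4 control arrays, so that its rise in control cells is known only as at least 11.0-fold.

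Ptgs1 was the 1 gene of 20546 (0.00487%) whose IL-4 response differed between genotypes after adjustment; 805 genes had an unadjusted p under 0.05. Its difference was 1.52 in KO cells and 4.39 in control cells, so the KO response was 2.87 ± 0.228 smaller on the log2 scale (limma adjusted p = 0.000996). Among genes called in KO cells, the next smallest p-values for a smaller rise in KO cells belonged to Egr2 (difference between genotypes -1.80, limma adjusted p = 0.0892), Clec7a (-1.04, limma adjusted p = 0.19), the leucine zipper repressor Nfil3 (2.20 in KO and 3.34 in control cells, limma adjusted p = 0.286) and the tight junction gene Cldn11 (1.74 and 4.51, limma adjusted p = 0.286). Those 4 did not pass the threshold, and the KO rise of Cldn11 itself lost its call without KO vehicle array 5, 6 or 7 or KO IL-4 array 15 (limma adjusted p = 0.0518, 0.112, 0.079 and 0.0842). On the other side stood Il1r1, the interleukin 1 receptor (0.83 in KO and -0.46 in control cells, limma adjusted p = 0.286), Chil4 (limma adjusted p = 0.535), and Ccl3, Ccl4 and Pilrb1, which fell less in KO cells (-0.76, -0.51 and -1.42) than in control cells (-1.68, -1.41 and -2.85) with limma adjusted p-values of 0.419, 0.286 and 0.297. Ptgs1 was called in every alternative that fitted both genotypes, with a limma adjusted p of at most 0.042, while the number of called genes lay between 1 and 10; Egr2 joined it in 7 of them and Clec7a in 4.

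The levels behind these differences fell into distinct patterns, described without a test of level between genotypes. Ptgs1 measured -2.41, -2.24, -1.99 and -2.54 in control cells with vehicle and 2.15, 2.16 and 1.96 with IL-4, so that KO cells with vehicle (mean 1.11) stood far above control cells with vehicle and below both IL-4 groups. Egr2 had a mean of 4.00 in control and 5.97 in KO cells with vehicle, against 6.71 and 6.88 with IL-4. Clec7a had 4.28 and 5.65 with vehicle, against 6.30 and 6.63 with IL-4, and Nfil3 had 0.93 and 2.21 with vehicle, against 4.27 and 4.41. In these 4 genes the gap between genotypes lay with vehicle and the levels with IL-4 were nearer each other. Cldn11 and Chil4 were the reverse, close with vehicle (-2.46 in control and -2.55 in KO cells for Cldn11, -2.38 and -2.50 for Chil4) and apart with IL-4 (2.05 and -0.80, and -0.21 and 1.96). Pilrb1 had means of 3.41 and 3.80 with vehicle and fell to 0.56 in control cells and 2.37 in KO cells.

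**Figure D5:**
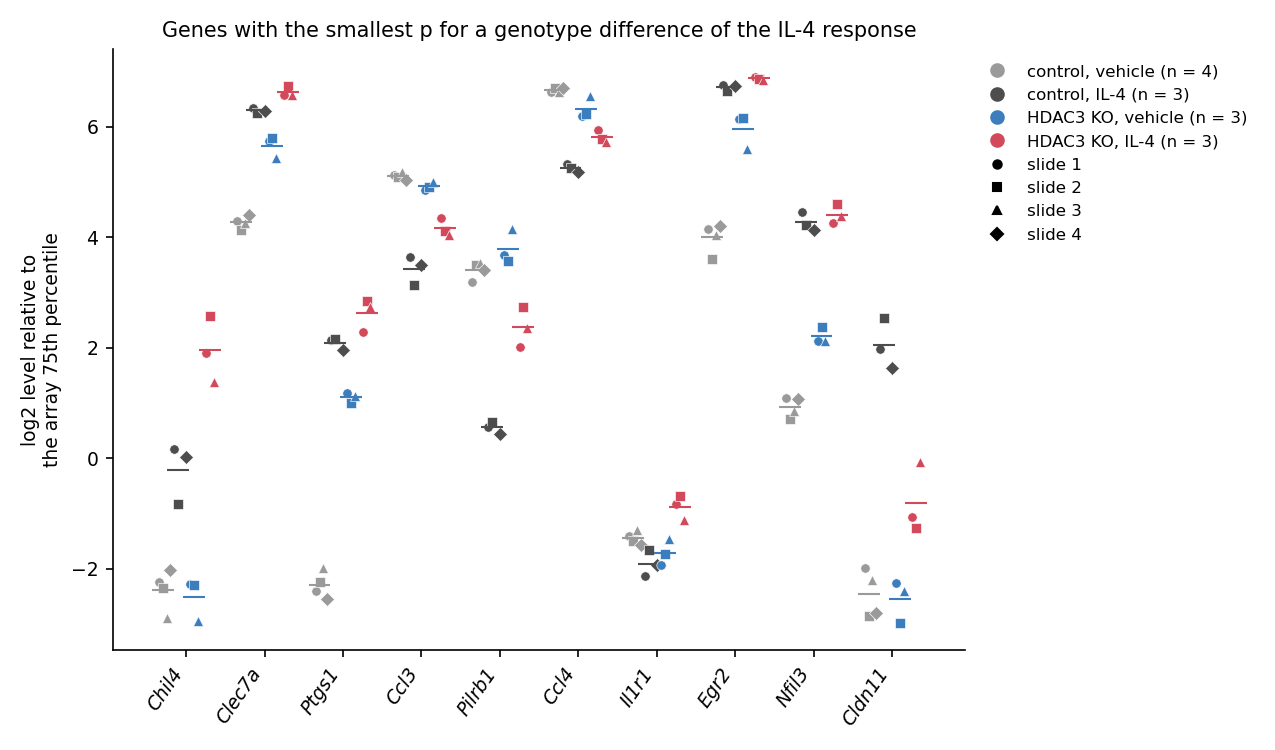
Level (log2 relative to the array's 75th percentile, vertical axis) on every array of the 4 groups for the genes with the smallest p-values for a difference between genotypes among those called in KO cells. Points are arrays, shaped by slide, and short lines are group means; Ptgs1 differs by 4.39 in control and 1.52 in KO cells and is the gene among them whose difference between genotypes was called.

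A core of 19 genes was called in KO cells in the 13-array fit, in the fits on the 6 KO arrays with and without slide as a block, and in the test against a minimum log2 change of 1. Named after their values were seen, 18 of them rose (Retnla, Chil3, Ear3, Ear10, Rnase2a, Arg1, Ear1, Chil4, Ear6, Slc7a2, Tmem26, Cish, Plxdc2, Irf4, Aldh1a2, Nfil3, Clec10a and P2ry1) and 1 fell (Sncaip). Aldh1a2, which makes retinoic acid from retinal, measured -2.22, -2.48 and -2.62 with vehicle and 0.08, 0.38 and 0.10 with IL-4, a difference of 2.63 ± 0.256 (limma adjusted p = 0.00025) that was 2.83 in control cells. Nfil3 measured 2.12, 2.38 and 2.12 with vehicle and 4.25, 4.60 and 4.38 with IL-4, a difference of 2.20 ± 0.145 (limma adjusted p = 1.79e-05). In each of them the slides gave the same direction, which the choice of genes called with slide as a block largely fixed in advance.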

How the data were processed

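RNA of the 13 macrophage samples was amplified (NuGEN Ovation), labelled with Cy3 and hybridised to 1-colour Agilent mouse arrays, per the labels' protocols. The deposited scanner files hold spot intensity after background subtraction, made with Agilent Feature Extraction 10.5.1.1 and build mm9 per the file headers; the submitters' processing notes name version 9.53 and limma. The authors' value table, deposited on an unstated linear scale, holds a processed signal (median 181 or 181.5 and 75th percentile 772 on every array) that correlated at 0.998 or more with the scanner intensity on the log2 scale, and was used as an alternative.

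The log2 processed signal minus the array's 75th percentile was averaged over the spots of a probe; 101 probes with outlier spots were left out of 41174. A probe was used if some group had it well above background on all of its arrays, and the brightest such probe stood for a gene (20546 genes). A reference symbol was found for 80.4% of probes, 25097 of them through the accession in the file. Differences were tested with limma 3.58.1 in R 4.3.3 (group means, 13 arrays, 2-sided, Benjamini-Hochberg over all genes, called at an adjusted p under 0.05). A value after ± is the standard error of that fit. On simulated data the script called 51% of planted log2 changes of 1 and 88% of those of 2. It also called 10 genes without a planted change. The simulated arrays were independent with the same spread in every group, so the wider spread and slide pairs of the KO arrays were not covered. A bound ("at least N-fold") sets the bright group's mean against the mean of, per array of the dim group, the higher of the lowest signal among probes well above background and the dim probe's own.

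Named genes were the 15 largest differences each way among called genes whose KO groups did not overlap, up to 4 members of each of 25 pathway lists, genes for the difference between genotypes, and a fixed set (Hdac3, Lyz2, Retnla, Chil3, Arg1, Mrc1, Clec10a, Irf4, Egr2, Pparg, Stat6, Il4ra, Socs1, Cish and Ptgs1); other list members are given as values. The members and lists were chosen with earlier results of these data known. Motifs were searched in the 250 bases before the start of RefSeq promoters (GRCm38.p6). Alternatives changed the scaling, background correction, probe filter, variance model, slide block and arrays used.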

Additional observations from a re-analysis of the deposited data

Results flagged for a closer look

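The IL-4 response of Ptgs1 differed between genotypes: the difference of responses, KO minus control, was -2.87 ± 0.228 on the log2 scale (limma adjusted p = 0.000996), with every IL-4 array above every vehicle array in KO cells.

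Il1r1 moved in opposite directions in the genotypes, by 0.83 in KO and -0.46 in control cells; the difference of responses was 1.30 (limma adjusted p = 0.286), which did not pass the threshold, and the rise in KO cells lost its call without KO vehicle array 5 or 6 or KO IL-4 array 13 or 14 (limma adjusted p = 0.0914, 0.0762, 0.0567 and 0.0807).

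The mean net signal of negative control spots was 122.3 on control vehicle array 4. It stood apart from the other 3 control vehicle arrays and from the 49.8 to 71.3 of the other 12 arrays. This was the 1 of 13 such comparisons that stood apart, where chance gives about 1 in 20. All 13 were made within the control vehicle group, because groups of 3 arrays, the KO groups among them, were too small for it. Control vehicle array 4 enters the KO results through the shared spread, the probe filter and the choice of the brightest probe. Without it in the fit, with the same probes kept, 396 genes were called in KO cells, 384 of them among the 460.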

How the results depend on the processing

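The groups share no replicate numbers in the labels, but each KO vehicle array shares a slide with 1 KO IL-4 array, and the deviations of such pairs from their group means correlated at 0.377, 0.262 and 0.505, so the fit with slide as a fixed block in the 6 KO arrays is a paired analysis. By limma, 231 genes rose and 229 fell in KO cells. The numbers were 413 and 397 with normexp and quantile normalization, 390 and 382 with a variance trend and robust fit, 82 and 35 with the 6 KO arrays only, 29 and 4 with those arrays and slide as a fixed block, and 24 and 3 against a minimum log2 change of 1. With median scaling 109 genes fell, and without the 2 arrays with the fewest spots well above background (an alternative chosen after seeing the data) 116 fell. Leaving out 1 array gave 145 to 232 genes that rose, 120 to 257 that fell and 1 to 4 that differed between genotypes. The last number was 1, and 2 with quantile normalization, 2 with the submitters' value table, 2 with probes well above background on all arrays, 4 with array weights, 8 with normexp and 10 with the variance trend; the cause was not tested. With slide as a fixed block in all 13 arrays, 333 of the 460 calls kept direction and threshold, and with slide as a random block (correlation 0.0375) all 460 did. No called difference of a named gene changed sign in any alternative that tested it. The median difference changed sign in 1 to 7 of 27 alternatives for 13 lists, 1 of them the prostanoid and leukotriene receptors (0.34, and -0.13 with no filter on dim probes). The 460 genes kept their sign in every alternative that tested them, except that 2 changed sign with the mean of a gene's probes. The share of calls that rose was 50.2%, 62.4% with median scaling, 70.1% with the 6 KO arrays, 87.9% with slide as a block in them and 88.9% against the minimum change. The number of arrays, 3 in each KO group, limits the precision, and probes near background carry bounds only.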

Other observations

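Further gene families were described after their values were seen, so their counts are descriptions. Fc receptors of immunoglobulin G moved apart: the inhibitory Fcgr2b measured 0.01, -0.13 and -0.12 in KO cells with vehicle and 1.96, 2.68 and 2.01 with IL-4, a difference of 2.30 (limma adjusted p = 2.72e-05), while the activating high-affinity receptor Fcgr1 fell by 0.81 on the log2 scale (limma adjusted p = 0.0237); the other 5 of 7 measured were not called, and the fall was lost without KO vehicle array 6 or 7 or KO IL-4 array 13 or 14. Among 11 CC chemokine ligands, Ccl7 (1.42, limma adjusted p = 0.00294), Ccl8 and Ccl12 (1.92) rose while Ccl3 and Ccl4 fell, the count of falls being 0 without KO vehicle array 7 or KO IL-4 array 15 and 1 without any 1 of 9 other arrays. Of 16 C-type lectin receptors 5 rose and 3 fell, the falls being Clec4e, the mycobacterial glycolipid sensor Mincle (-1.68, limma adjusted p = 0.0121), Clec4n, which encodes dectin-2 (-1.12), and Clec12a (-1.02); the median of 0.04 changed sign in 1 of 27 alternatives.

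Genes of iron handling moved both ways, with 3 of 16 up and 3 down; the falls were 1 without KO vehicle array 5, 6 or 7 or KO IL-4 array 15 and 0 with median scaling. The transferrin receptor Tfrc measured 5.15, 5.39 and 5.14 with vehicle and 6.60, 6.58 and 6.61 with IL-4, a difference of 1.37 ± 0.0981 (limma adjusted p = 2.72e-05), and transferrin itself, Trf, rose by 1.41 (limma adjusted p = 0.00436), while the exporter ferroportin, Slc40a1, fell by 0.74 on the log2 scale (limma adjusted p = 0.0482). Receptors for nucleotides and adenosine rose in 3 of 12: P2ry1 measured 2.22, 2.36 and 1.91 with vehicle and 4.24, 4.25 and 4.28 with IL-4, a difference of 2.09 ± 0.133 (limma adjusted p = 1.47e-05), and Adora2b rose by 1.60; the count was 1 in 9 of the 13 fits without a single array, among them those without KO vehicle array 5 or 6 or any KO IL-4 array. Prostanoid receptors rose in 2 of 8, Ptger2 (0.93) and Ptgir (0.84), and in 0 without KO vehicle array 7 or KO IL-4 array 14 and 1 without KO vehicle array 6 or KO IL-4 array 15. Of 16 folding factors of the endoplasmic reticulum, Pdia4 (0.89), Pdia6 (0.87) and Creld2 (0.84) rose, with a list median of 0.27. The count was lower in 15 of 27 alternatives, and 0 in the fits on the 6 KO arrays with and without slide as a block. MAP kinase phosphatases and Sprouty inhibitors fell in 4 of 12 (Dusp8 by 1.17, Dusp6 by 0.85, Spry2 by 0.71 and Dusp7 by 0.57 on the log2 scale) and Dusp4 rose by 1.47. The count of falls was 1 in the fit on the 6 KO arrays and 0 with slide as a block in them, and the rise was called in neither. Schlafen genes fell in 4 of 7, with a median of -0.74, and the count was 2 without KO vehicle array 7, KO IL-4 array 14 or KO IL-4 array 15 and 0 in the fit on the 6 KO arrays. Ifi200 genes fell in 3 of 6 (median -0.58), but in 0 without KO vehicle array 7, KO IL-4 array 14 or KO IL-4 array 15 and with median scaling, and in 1 in 8 other fits without a single array. Immunity-related and guanylate-binding GTPases fell in 2 of 11 (median -0.47), with medians of 0.05, -0.52 and -0.86 on slides 1, 2 and 3, and in 1 without KO vehicle array 6 or 7 or KO IL-4 array 14 or 15; the count was 4 without KO IL-4 array 13.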
